A study of Schizosaccharomyces pombe with 12 samples.

Results

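The comparison described here is that of ssu72-C13S, a mutant of the fission yeast Schizosaccharomyces pombe, with wild type (WT). It uses 3 ssu72-C13S and 3 WT libraries of the 12 in the series. All genes of the deposited table of raw counts entered it, 6986 after a row that repeated an identifier was dropped, and 6189 of them passed a filter on low counts and were tested. The ssu72-C13S libraries came from laboratory strain AS 385 and the WT libraries from strain JS 77. A mutant called asp1-H397A (strain AS 2193), also with 3 libraries, is used once as a second point of comparison. The other 3 libraries came from a triple mutant, asp1-H397A ssu72-C13S aps1∆ (strain AS 2308), which carries a deletion of aps1. They entered only the model fitted to all 12 libraries. All cultures were sampled in logarithmic phase of vegetative growth in YES, a rich yeast extract medium with glucose, and poly(A)+ RNA was sequenced with a stranded kit. No deletion or transgene is labelled as shared by the groups compared. Each genotype is 1 laboratory strain, so the allele and any other difference between the strains cannot be told apart.

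Ssu72 is a protein phosphatase of the cleavage and polyadenylation factor, the complex that cuts nascent transcripts and adds their poly(A) tail. It removes phosphate from the carboxy-terminal domain (CTD) of RNA polymerase II, and the cysteine changed in the C13S allele is its catalytic residue. In fission yeast, genes that take up phosphate are held down by transcription of non-coding RNAs that lie upstream of them and run towards them, so that the place where such a transcript ends bears on the level of the gene. The title of the series sets out this link between RNA 3′ processing, termination and phosphate homeostasis. The question taken up here is wider: which functions and gene classes differed in the strain with the altered phosphatase.

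The ssu72 transcript itself had 10, 10 and 11.5 counts-per-million (CPM, scaled between libraries) in ssu72-C13S and 14.4, 15.1 and 15.7 CPM in WT. Its log2 fold change, ssu72-C13S over WT as everywhere below, was -0.52 with a standard error (SE) of 0.15, and its adjusted p was 9.22e-03 by edgeR's quasi-likelihood test. All ssu72-C13S libraries were lower than all WT libraries, as they were for 39.7% of tested genes, while the reverse held for 34.4%. The counts per gene carry no base calls, so the amino acid change could not be read from them.

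The 6 libraries held 23485996 to 29124916 counts. Within each genotype the log2 CPM of 2 libraries correlated at 0.997 to 0.998 across genes. The labels do not say whether the 3 libraries of a genotype came from separate cultures, so the spread behind the p-values may be technical. That spread was estimated from all 12 libraries of the series, not only from the 6 compared. At an adjusted p under 0.05, 3384 genes differed, 54.7% of those tested, with 1581 higher (25.5%) and 1803 lower (29.1%). Of these, 569 (9.19%) differed by 2-fold or more, 292 of them higher (4.72%) and 277 lower (4.48%). The counts for gene groups below are to be read against those shares, and the median log2 fold change over all tested genes was -0.04. Levels are for the bulk culture, in which a smaller share of cells with a transcript and less transcript per cell cannot be told apart. Counts of genes that overlap another gene on the opposite strand are uncertain, because the strand setting used in counting is not given in the sources used here. This touches 52 of the 144 genes named below, among them srx1, obr1, caf5, rip1, kgd2, lys2, tgp1, ste4, spk1, cft2 and ngl1, and 18 share bases with a gene on the same strand, among them pho84, cyc1 and inv1.

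Several functions moved together in the ssu72-C13S libraries. Transcripts of the respiratory chain and of ATP synthase were lower, transcripts for iron uptake were higher, and a small set of oxidative stress genes was several times higher. Transcripts for ribosomes and their assembly were lower by smaller amounts in large numbers, and those for mating and for phosphate uptake were lower too. The plot of the fold change of every tested member of 25 groups gives this picture at a glance.

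**Figure D1:**
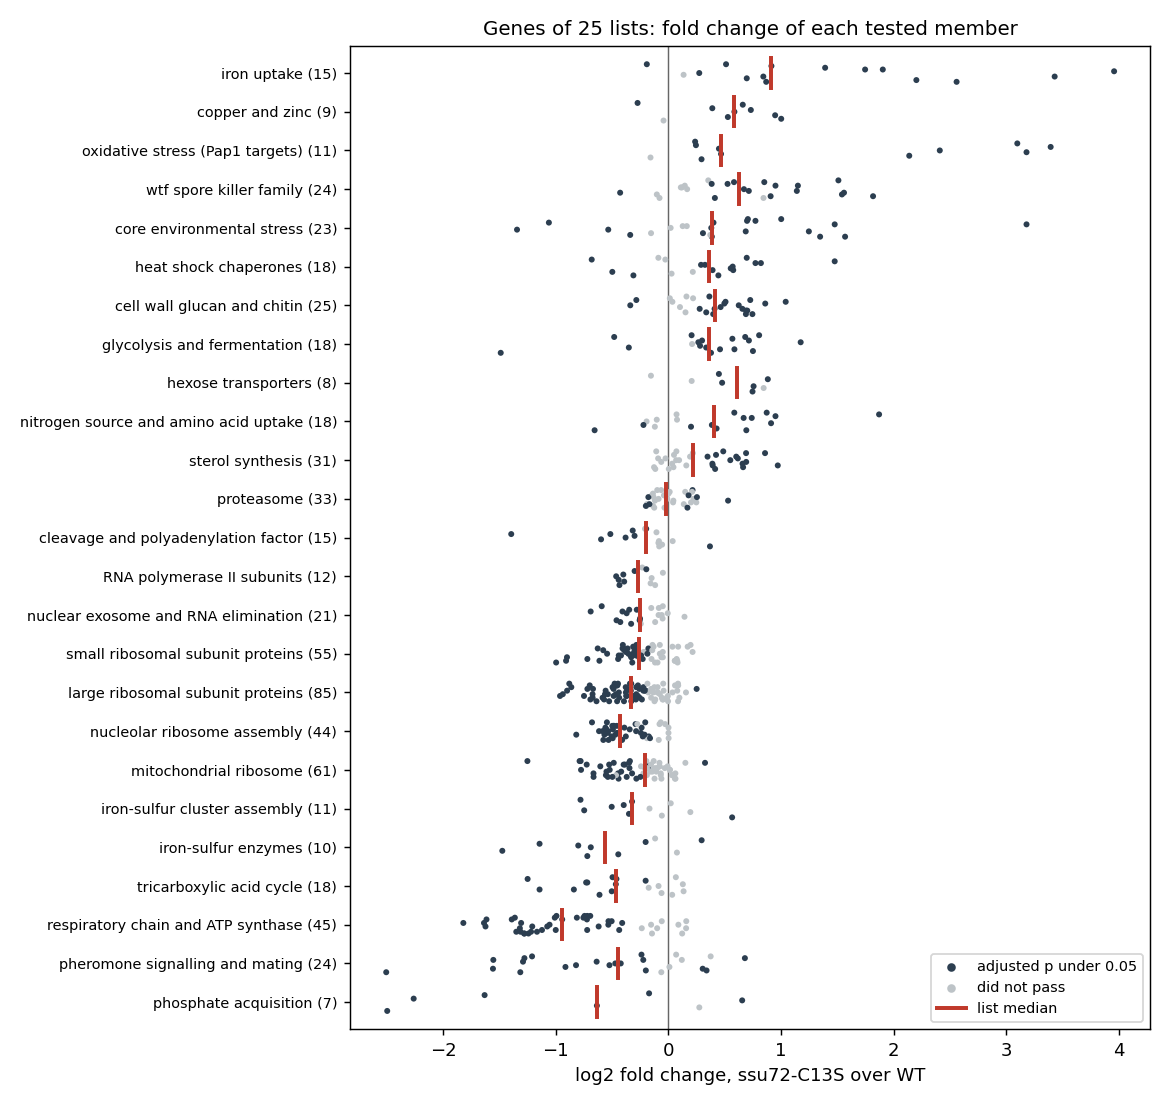
Log2 fold change, ssu72-C13S over WT, of each tested member of 25 gene groups, 1 row per group. Dark points passed an adjusted p of 0.05, pale points did not, and the red bar is the group's median. The respiratory chain and ATP synthase lie at a median of -0.94 with 0 members higher, and iron uptake lies at 0.92.

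Energy metabolism differed at several steps. In the group of the respiratory chain and ATP synthase, which burn the products of the citric acid cycle with oxygen to make ATP, 36 of 45 tested members fell and 0 rose, 21 of them by 2-fold or more. Together these genes took 0.608 ± 0.00611% of counts in ssu72-C13S and 1.33 ± 0.0128% in WT (SD, n = 3 each). The cytochrome bc1 complex, the middle complex of the chain, fell in all 9 of its tested members, with a median of -1.39. Its cytochrome c1 gene cyt1 had 178, 170 and 167 CPM in ssu72-C13S and 627, 605 and 587 CPM in WT (-1.82, SE 0.097, adjusted p 7.01e-09). The Rieske iron-sulfur subunit gene rip1 had 154 CPM in each ssu72-C13S library and 470, 489 and 460 CPM in WT (-1.62, SE 0.093, adjusted p 1.29e-08). Every member of the complex was thus separated between genotypes by far more than its libraries spread, and qcr8 and qcr7, for 2 small subunits, lay at -1.64 and -1.63.

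The carriers and complexes on either side behaved likewise. Cytochrome c, encoded by cyc1, had 353, 363 and 344 CPM in ssu72-C13S and 909, 947 and 873 CPM in WT (-1.36, SE 0.092, adjusted p 6.37e-08). Of 17 genes for cytochrome c oxidase subunits and assembly factors, 10 fell and 0 rose, with a median of -0.53. Of 18 for ATP synthase and its assembly, 16 fell and 0 rose, with a median of -0.97. The gene atp2, for the catalytic beta subunit of ATP synthase, averaged 887 CPM in ssu72-C13S and 1844 CPM in WT. The 9 members of the group that did not pass the test act in assembly of the complexes. Other assembly genes on the list fell. The external NADH dehydrogenase gene nde1, which feeds cytosolic NADH into the chain and was not on the list, had 168, 171 and 157 CPM in ssu72-C13S and 686, 670 and 617 CPM in WT (-1.99, SE 0.099, adjusted p 3.92e-09). The ATPase inhibitor gene inh1 fell with it (-1.79, SE 0.072), as did anc1, for the mitochondrial exchanger of ATP and ADP (-1.39, SE 0.093). By contrast none of the 4 tested genes of the mitochondrial genome passed the test in either direction; poly(A) selection leaves little of such RNA.

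The citric acid cycle, listed together with pyruvate dehydrogenase, fell in part, with 11 of 18 members lower, 0 higher and a median of -0.46. The dihydrolipoamide succinyltransferase gene kgd2 had 78.7, 83.4 and 85.0 CPM in ssu72-C13S and 201, 205 and 182 CPM in WT (-1.25, SE 0.089). The malate dehydrogenase gene mdh1 and the fumarase gene fum1 fell by 0.84 and 0.73 on the log2 scale. The cycle was not lower throughout, because kgd1 and sdh1, for subunits of the oxoglutarate and succinate dehydrogenases, lay at 0.13 and -0.06 and did not pass.

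Glycolysis moved the other way. Of 18 genes for glycolysis and fermentation, which make ATP from glucose without oxygen, 14 rose and 3 fell, and the group took 5.88 ± 0.0960% of counts in ssu72-C13S and 4.42 ± 0.0236% in WT (SD, n = 3 each). The phosphoglycerate kinase gene pgk1 had 5129, 5165 and 5037 CPM in ssu72-C13S and 2910, 3080 and 3119 CPM in WT (0.75, SE 0.092, adjusted p 1.48e-05). The pyruvate kinase gene pyk1 had 7876, 7895 and 7858 CPM in ssu72-C13S and 4748, 4888 and 4757 CPM in WT (0.72, SE 0.10). The 2 most raised members, pdc202 and pdc201, encode pyruvate decarboxylases, the enzymes that commit pyruvate to ethanol, and lay at 1.18 and 0.81. The more abundant decarboxylase gene pdc101 fell, averaging 2512 CPM in ssu72-C13S and 3205 CPM in WT (-0.35). The enolase gene eno102, near a chromosome end, fell by 1.49 on the log2 scale. Of 8 tested hexose transporter genes 5 rose and 0 fell, among them ght2, which averaged 337 CPM in ssu72-C13S and 183 CPM in WT (0.88).

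Genes that glucose represses in this yeast did not move together: 3 of 11 rose and 4 fell. The secreted invertase gene inv1 averaged 25.3 ± 2.35 CPM in ssu72-C13S and 7.35 ± 0.983 CPM in WT (SD, n = 3 each), a 3.44-fold difference. The alpha-glucosidase gene agl1 rose too (1.15). Genes of glycerol use fell, with dak2, for dihydroxyacetone kinase and near a chromosome end, at -1.48. The glycerol dehydrogenase gene gld1 lay at -1.25 and gut2, for the mitochondrial glycerol-3-phosphate dehydrogenase, at -1.16. By contrast gpd1, for making glycerol and not on this list, rose (below). Invertase and the enzymes of glycerol use, both counted as repressed by glucose, were therefore on opposite sides of WT.

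**Figure D2:**
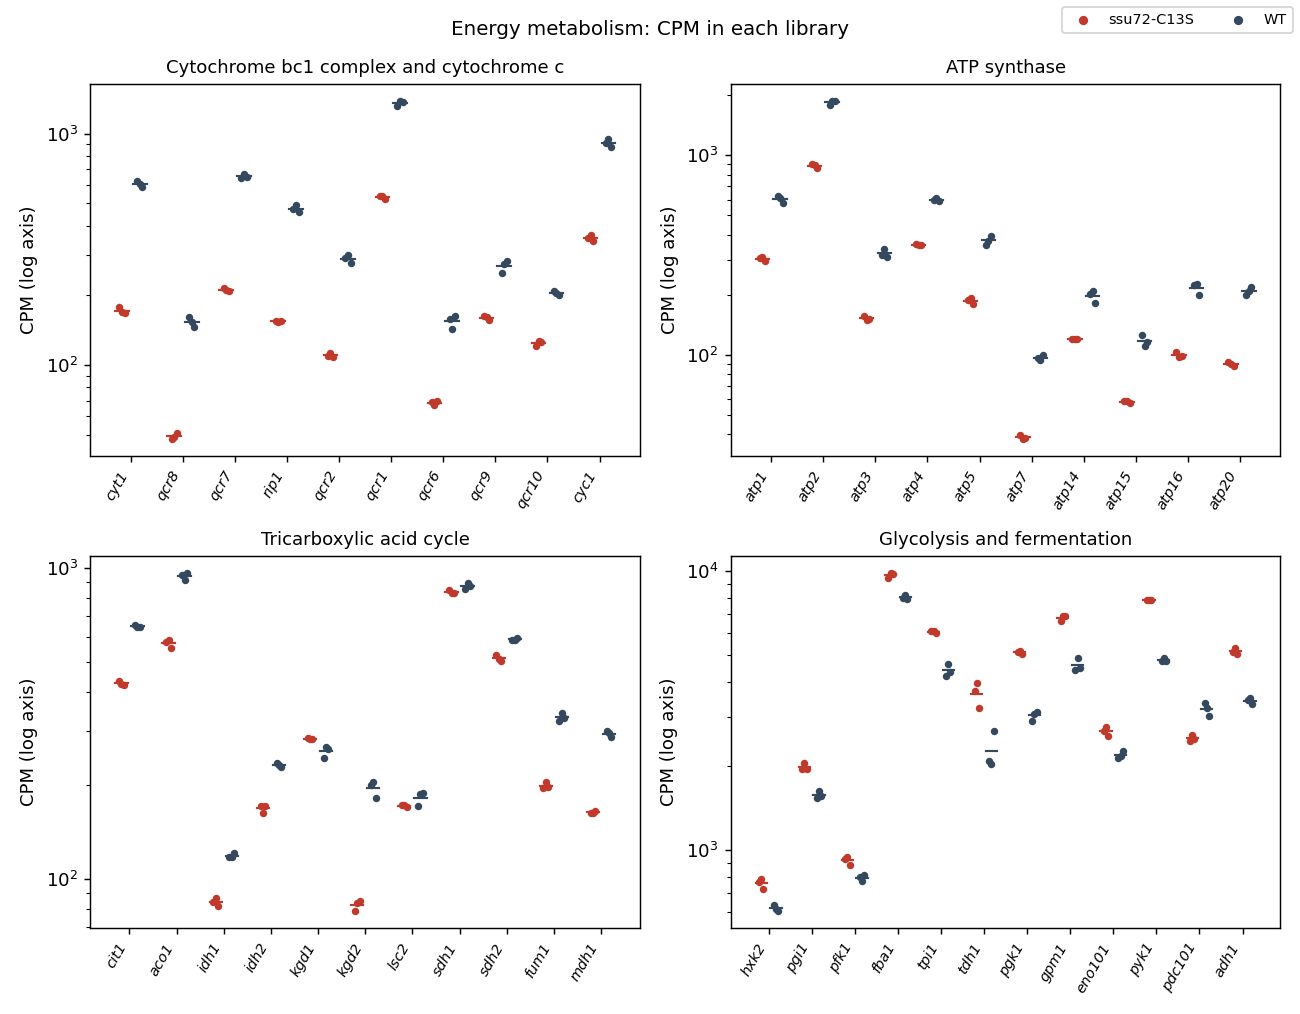
CPM in each library, on a log axis, for genes of the bc1 complex with cytochrome c, ATP synthase, the citric acid cycle, and glycolysis with fermentation. Points are libraries, with ssu72-C13S left of WT, and bars are means of 3. The points of ssu72-C13S lie below those of WT for all plotted bc1 genes, and above them for pgk1 and pyk1.

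Iron acquisition rose almost as a whole. Fission yeast takes up iron by reducing and oxidising it at the cell surface, by importing iron-carrying siderophores, and from haem, and it holds these genes down through the repressor Fep1 when iron is ample. Of 15 genes of iron uptake and its control, 13 rose and 1 fell, 7 by 2-fold or more, with a median of 0.92. The siderophore transporter gene str1 had 238, 220 and 291 CPM in ssu72-C13S and 19.6, 28.1 and 21.7 CPM in WT (3.43, SE 0.15, adjusted p 9.29e-10). A second siderophore transporter gene, str3, had 5.46, 4.21 and 7.24 CPM in ssu72-C13S and 0.305, 0.246 and 0.543 CPM in WT (3.96, SE 0.33). The groups were far apart for both.

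The surface oxidase and its partner permease rose together. The iron oxidase gene fio1 had 34.6, 36.2 and 42.6 CPM in ssu72-C13S and 6.07, 6.02 and 7.18 CPM in WT (2.56, SE 0.13, adjusted p 5.61e-09). Its divergent neighbour fip1, for the permease, had 113, 114 and 143 CPM in ssu72-C13S and 31.4, 34.2 and 33.4 CPM in WT (1.90, SE 0.12). The ferric reductase gene frp1 had 26.4, 25.6 and 27.5 CPM in ssu72-C13S and 5.31, 5.91 and 6.05 CPM in WT (4.61-fold), and the haem receptor gene shu1 rose by 1.75. The siderophore synthesis genes sib2 and sib1 rose less, by 0.92 and 0.70. The gene php4, whose product holds down iron-using genes when iron is scarce, had 62.6, 60.9 and 68.8 CPM in ssu72-C13S and 34.3, 37.1 and 33.9 CPM in WT (0.87, SE 0.099, adjusted p 7.29e-06). The repressor's own gene fep1 was at 138, 133 and 137 CPM in ssu72-C13S and 129, 122 and 120 CPM in WT, with an adjusted p of 0.112. The member that fell was pcl1, for a vacuolar importer of iron (-0.19), and it did not pass under RLE scaling of the libraries.

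Genes for making and using iron-sulfur clusters went the opposite way. These 2 lists were drawn up after the values had been seen. Of 11 genes for cluster assembly 6 fell and 1 rose, with the cysteine desulfurase gene nfs1, which supplies the sulfur, averaging 98.1 CPM in ssu72-C13S and 169 CPM in WT (-0.78). The member that rose was isu1, for the scaffold on which clusters are built, with 299, 303 and 331 CPM in ssu72-C13S and 205, 218 and 208 CPM in WT (0.57, SE 0.086). Of 10 genes for enzymes that hold a cluster, 7 fell and 1 rose. The homoaconitase gene lys2, of lysine synthesis, had 116, 114 and 119 CPM in ssu72-C13S and 333, 330 and 309 CPM in WT (-1.48, SE 0.075, adjusted p 5.05e-09). The dihydroxyacid dehydratase gene ilv3, of branched amino acid synthesis, fell by 0.80, and bio2, for biotin synthase, by 0.69. The sulfite reductase gene sir1 was the one that rose (0.30).

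Copper and zinc genes were mostly higher as well, 7 of 9 with 1 lower. The metallothionein gene zym1 averaged 37.6 CPM in ssu72-C13S and 18.8 CPM in WT (1.00), and the vacuolar copper transporter gene ctr6 averaged 113 CPM in ssu72-C13S and 58.7 CPM in WT (0.95). Genes for the delivery of copper to the secretory pathway (ccc2, 0.73), where the oxidase Fio1 receives it, and for zinc storage (zhf1, 0.66) also rose.

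Genes controlled by Pap1, a transcription factor of the oxidative stress response that also confers drug resistance, rose as a group. Of 11 genes listed as its targets, Pap1 included, 10 rose and 0 fell, 5 of them by 2-fold or more, and the group took 1.23 ± 0.0109% of counts in ssu72-C13S and 0.482 ± 0.00593% in WT (SD, n = 3 each). The sulfiredoxin gene srx1, whose product revives over-oxidised peroxiredoxin, had 100, 98.7 and 97.0 CPM in ssu72-C13S and 9.24, 10.3 and 8.5 CPM in WT (3.40, SE 0.12, adjusted p 3.20e-10). The glutathione transferase gene gst2 had 859, 861 and 829 CPM in ssu72-C13S and 100, 89.4 and 91.0 CPM in WT (3.18, SE 0.11). The transporter genes caf5 and bfr1, which export drugs, lay at 3.10 (SE 0.12) and 2.41 (SE 0.10). For bfr1 the libraries read 1190, 1208 and 1089 CPM in ssu72-C13S and 217, 208 and 230 CPM in WT. The gene obr1, for a flavodoxin-like quinone oxidoreductase, had 5489, 5546 and 5423 CPM in ssu72-C13S and 1138, 1259 and 1337 CPM in WT (2.14, SE 0.18).

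The other members of that list moved little. The peroxiredoxin gene tpx1 averaged 1866 CPM in ssu72-C13S and 1367 CPM in WT (0.45) and the thioredoxin gene trx2 rose by 0.47. The pap1 transcript had 288, 294 and 291 CPM in ssu72-C13S and 240, 241 and 232 CPM in WT (0.29, SE 0.071, adjusted p 3.23e-03). The catalase gene ctt1, a classic peroxide-induced gene kept on the list of core stress genes, was at 0.16 with an adjusted p of 0.218. The members of the list thus fell into 5 with large rises, of which obr1 at 2.14 was the smallest, and the rest, at 0.47 or less.

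**Figure D3:**
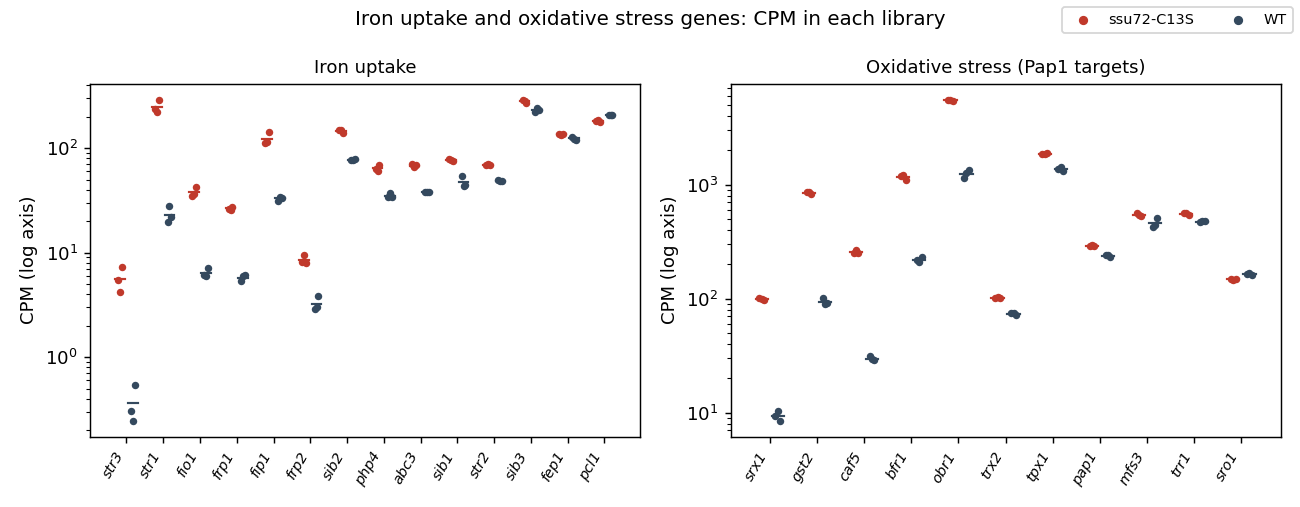
CPM in each library, on a log axis, for 14 iron genes and 11 genes listed under Pap1. Points are libraries, with ssu72-C13S left of WT, and bars are means of 3. The widest gaps are at str3 and str1 among the iron genes and at srx1, gst2, caf5, bfr1 and obr1 among the Pap1 genes.

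Of 23 genes of the core environmental stress response, which many stresses raise through the kinase Sty1 and the factor Atf1, 14 rose and 4 fell, with a median of 0.39. That list shares gst2 with the Pap1 list and zym1 with the copper and zinc list. The small heat shock protein gene hsp16 had 180, 219 and 217 CPM in ssu72-C13S and 79.2, 59.8 and 82.4 CPM in WT (1.48, SE 0.11, adjusted p 2.00e-07). The glycerol-3-phosphate dehydrogenase gene gpd1, which makes glycerol under osmotic stress, had 2780, 2806 and 2683 CPM in ssu72-C13S and 1093, 1218 and 1171 CPM in WT (1.25, SE 0.099). The calcium-transporting ATPase gene cta3 rose by 1.57, and wwm3 was the member that fell most, at -1.34. Among 18 heat shock chaperones, hsp16 included, 11 rose and 3 fell. After hsp16 the rises included psi1 (0.82) and ssa1 (0.70), for a co-chaperone and a cytosolic Hsp70, and hsp90, which averaged 6016 CPM in ssu72-C13S and 4036 CPM in WT (0.58). The mitochondrial Hsp70 gene ssc1 and the ribosome-bound Hsp70 gene sks2 fell, by 0.68 and 0.50.

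Transcripts for building ribosomes were lower by small, even amounts. Of 55 genes for small subunit proteins 32 fell and 0 rose, with a median of -0.26. Of 85 genes listed by symbol (rpl and rpp) for the large subunit, 56 fell and 1 rose, with a median of -0.33. The rpp symbol also took in subunit genes of RNase P. The large subunit list took 9.79 ± 0.131% of counts in ssu72-C13S and 12.2 ± 0.350% in WT (SD, n = 3 each). Many ribosomal proteins are encoded by near-identical gene copies, between which reads can be misassigned. The group values are therefore firmer than those of single genes. Of 44 genes for nucleolar assembly of ribosomes 35 fell and 0 rose, with a median of -0.43. The nucleolin-like gene gar2 had 296, 303 and 305 CPM in ssu72-C13S and 528, 539 and 526 CPM in WT (-0.82, SE 0.062, adjusted p 1.83e-07). The snoRNP protein gene nop10 lay at -0.68 and noc3, for a nucleolar factor of the large subunit, at -0.62. Translation factors fell in 20 of 34 cases with 1 higher and splicing factors in 19 of 48 with 1 higher. Of 61 genes listed for the mitochondrial ribosome, 1 of them a non-coding RNA, 29 fell and 1 rose. Of 33 proteasome genes 5 rose and 3 fell. These counts varied with the libraries in the fit: 13 translation factors were lower without ssu72-C13S replicate 2 and 11 splicing factors without ssu72-C13S replicate 1. Over all settings the highest counts of lower genes were 26 for translation factors, 33 for splicing and 42 for the mitochondrial ribosome list. The proteasome ranged from 0 to 12.

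Phosphate acquisition was lower. Of 7 genes, 5 fell and 1 rose. The secreted acid phosphatase gene pho1 had 372, 394 and 358 CPM in ssu72-C13S and 2107, 2054 and 2189 CPM in WT, and the phosphate transporter gene pho84 next to it had 218, 220 and 206 CPM in ssu72-C13S and 992, 1038 and 1066 CPM in WT. Their log2 fold changes were -2.50 (SE 0.12, adjusted p 1.94e-09) and -2.26 (SE 0.10, adjusted p 1.60e-09). The glycerophosphodiester transporter gene tgp1 fell less, with 11.8, 13.6 and 11.2 CPM in ssu72-C13S and 19.9, 18.3 and 18.6 CPM in WT (-0.64, SE 0.095, adjusted p 8.03e-05). The divergent neighbour of pho84, ecl3, was lower too, at 2.47, 1.59 and 1.48 CPM in ssu72-C13S and 5.43, 6.16 and 5.70 CPM in WT (-1.63, SE 0.18). On the other side of pho1 the direction turned: fub2, its tandem downstream neighbour for a proteasome regulator, had 1.75, 2.21 and 1.55 CPM in ssu72-C13S and 0.397, 0.317 and 0.388 CPM in WT (2.30, SE 0.27, adjusted p 1.04e-05).

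The gene pho7, for the activator of the phosphate genes, was the member of the list that rose, with 198, 193 and 196 CPM in ssu72-C13S and 116, 130 and 126 CPM in WT (0.66, SE 0.077, adjusted p 9.48e-06). The gene csk1, for a kinase that restrains them, lay at 0.27 with an adjusted p of 5.76e-02. The fifth member to fall, the transporter gene pho841, lay at -0.17 and missed the threshold under some other settings. Of 9 genes for inositol pyrophosphates and for proteins with a phosphate-sensing SPX domain, 6 fell and 2 rose. The polyphosphate polymerase genes vtc2 and vtc4 fell by 0.71 and 0.65 and the inositol hexakisphosphate kinase gene kcs1 by 0.67. The ubiquitin ligase gene pqr1, whose product acts on phosphate transporters, averaged 393 CPM in ssu72-C13S and 273 CPM in WT (0.53).

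**Figure D4:**
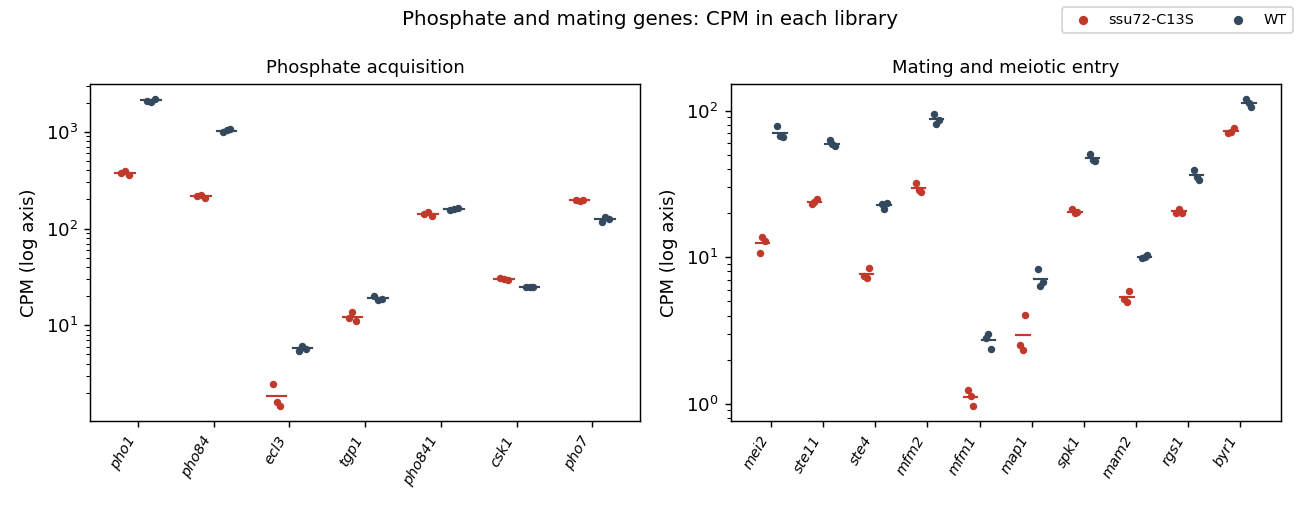
CPM in each library, on a log axis, for the 7 phosphate genes and for 10 genes of mating. Points are libraries, with ssu72-C13S left of WT, and bars are means of 3. The ssu72-C13S points lie below the WT points for pho1, pho84, ecl3 and tgp1 and for each mating gene shown, and above them for pho7.

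Genes of mating and of entry into meiosis were lower in this vegetative culture. Of 24 genes 16 fell and 3 rose, with a median of -0.45. The meiotic RNA-binding protein gene mei2, which drives entry into meiosis, had 10.7, 13.7 and 13 CPM in ssu72-C13S and 79.0, 67.7 and 65.7 CPM in WT (-2.51, SE 0.12, adjusted p 2.95e-09). The gene ste11, for the transcription factor that turns on mating genes, had 23, 23.9 and 25.1 CPM in ssu72-C13S and 62.7, 58.8 and 57.5 CPM in WT (-1.32, SE 0.11, adjusted p 6.37e-07). Other genes of the pathway that fell by 2-fold or more included the adaptor gene ste4 (-1.56), the MAP kinase gene spk1 (-1.21) and the pheromone gene mfm2 (-1.56). The secreted peptidase gene sxa2, which degrades pheromone, rose by 0.68. The labels give no mating type. Transcripts of genes specific to the M type (mfm2, mam2) and to the P type (map2, map3) were present in both genotypes, and map3 lay at -0.06 and did not pass.

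Meiotic transcripts that vegetative cells destroy through the RNA-binding protein Mmi1 were not lower: 6 of 12 tested rose and 0 fell, at low levels. The largest were mug10, at 1.63 CPM on average in ssu72-C13S and 0.443 CPM in WT (1.85), meu32 (1.38) and spo5 (1.00). Under other settings 3 to 6 of the 12 passed as higher. Of 106 genes named only for being raised in meiosis (mug and meu), 42 rose and 21 fell.

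Uptake, salvage and the cell surface gave several of the larger rises. A trio of neighbouring genes for uracil degradation rose together. The gene urg1 had 525, 504 and 359 CPM in ssu72-C13S and 64.5, 45.0 and 61.9 CPM in WT (3.02, SE 0.19, adjusted p 3.96e-08), and urg2 had 1147, 1115 and 787 CPM in ssu72-C13S and 152, 112 and 136 CPM in WT (2.93, SE 0.19). Library 3 of ssu72-C13S was the lowest of its genotype for both, and still well above every WT library. The third gene, urg3, lay at 1.69, the uridine kinase gene uck2 at 1.51, and the uracil permease gene fur4 at -0.18, which did not pass (adjusted p 0.0816).

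Of 196 membrane transporter genes 94 rose and 43 fell, with a median of 0.21. This list shares members with other lists, among them str1, fio1, ght2, bfr1 and amt3, so its rises are partly those given elsewhere. For nitrogen sources and amino acids 11 of 18 rose, led by the ammonium transporter gene amt3, which averaged 9.48 CPM in ssu72-C13S and 2.58 CPM in WT (1.87). Of 25 genes for cell wall glucan and chitin 17 rose and 2 fell, among them gas1, for a glucan-elongating enzyme, with 2823, 2781 and 2740 CPM in ssu72-C13S and 1301, 1335 and 1416 CPM in WT (2.06-fold). Of 12 genes for flocculins, adhesins and their control 7 rose and 3 fell, with a median of 0.49. The flocculin gene pfl3 had 169, 175 and 184 CPM in ssu72-C13S and 39.5, 40.5 and 40.7 CPM in WT (2.13, SE 0.12), while pfl9 of the same family had 3.88, 5.18 and 4.43 CPM in ssu72-C13S and 20.7, 21.6 and 21.1 CPM in WT (-2.23, SE 0.12). Of 31 genes for sterol synthesis and its control 15 rose and 0 fell. Among them erg24, for the sterol C-14 reductase, lay at 0.97 and erg2, for the C-8 isomerase, at 0.86.

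Genes for transcription and RNA 3′ processing differed mostly by small amounts. Of 15 genes of the cleavage and polyadenylation factor, to which Ssu72 belongs, 7 fell and 1 rose, with 5 to 11 lower depending on the setting. The gene cft2, for the subunit that partners the nuclease, had 25.7, 26.6 and 26.5 CPM in ssu72-C13S and 68.6, 70.7 and 68.1 CPM in WT (-1.40, SE 0.093, adjusted p 5.98e-08). It overlaps ngl1 on the opposite strand, a gene that fell more (below). Without cft2 the complex held no member that differed by 2-fold. The member that rose was cft1 (0.37). Of 9 genes for termination and cleavage factor I, 2 rose and 2 fell, with a median of -0.05. From 0 to 4 of these were lower depending on the setting. One of those that rose was pcf11, for the cleavage factor that binds the CTD and ends transcription (0.42). It averaged 148 CPM in ssu72-C13S and 110 CPM in WT. Of 12 RNA polymerase II subunits 7 fell and 0 rose, by at most 0.46 (rpb8), and the largest subunit rpb1 lay at -0.12 and did not pass. Among 18 CTD kinases, phosphatases and elongation factors 9 fell and 4 rose. The capping methyltransferase gene pcm1 fell most, averaging 7.39 CPM in ssu72-C13S and 20.5 CPM in WT (-1.47), and the kinase gene mcs6 rose by 0.50. Of 21 genes of the nuclear exosome and RNA elimination 11 fell and 0 rose, with red5 at -0.69 and the exosome subunit gene rrp40 at -0.59.

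Some of the largest changes of single genes fell outside these functions. The gene gdt1, for a Golgi ion transporter, had 127, 125 and 120 CPM in ssu72-C13S and 0.427, 1.06 and 0.543 CPM in WT (7.52, SE 0.27, adjusted p 4.02e-10). The But2-family gene SPAC27D7.09c had 396, 428 and 435 CPM in ssu72-C13S and 26.3, 25.1 and 27.1 CPM in WT (16.1-fold), and its tandem upstream neighbour and relative SPAC27D7.11c rose as well (1.17), as did but2 elsewhere (0.96). At SPAC750.01 the mean was carried by 1 library, with 57.8, 5.91 and 7.92 CPM in ssu72-C13S and 1.16, 0.844 and 1.40 CPM in WT. Its log2 fold change was 4.40, and 2.61 without ssu72-C13S replicate 1. Large rises were also seen for SPCC18B5.02c, an annotated pseudogene on the strand of bfr1 (3.81), and for adh8, for an alcohol dehydrogenase (2.53).

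Some of the largest falls came in adjacent genes, and genes beside each other did not always go the same way. The gene ngl1, for a peptide N-glycanase, had 1.2, 0.616 and 0.972 CPM in ssu72-C13S and 9.42, 8.94 and 10.2 CPM in WT (-3.34), between its convergent neighbour cft2 and its divergent neighbour set10, for a methyltransferase. The set10 transcript had 18.3, 17.9 and 19.6 CPM in ssu72-C13S and 73.7, 77.2 and 76.3 CPM in WT (-2.02, SE 0.075), so 3 genes in a row were lower. SPAC56F8.13 lay at -2.53 beside SPAC56F8.15 (-1.40) and mug115 (-1.33), both lower too. In contrast SPBC11C11.06c, which averaged 53.8 CPM in ssu72-C13S and 185 CPM in WT (-1.78), faces knh1, for a cell wall protein, which had 238, 238 and 242 CPM in ssu72-C13S and 74.8, 82.3 and 77.1 CPM in WT (1.62, SE 0.088). The phosphatidylglycerophosphatase gene gep4, of cardiolipin synthesis in mitochondria, had 0.652, 0.544 and 0.576 CPM in ssu72-C13S and 12.1, 9.18 and 9.58 CPM in WT (-4.11, SE 0.29, adjusted p 1.04e-07). The gene guf1, for a mitochondrial translation factor, had 2.64, 1.81 and 1.94 CPM in ssu72-C13S and 18.5, 20.0 and 18.6 CPM in WT (-3.15).

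Genes near the chromosome ends changed in both directions, and many by 2-fold or more, which held for 9.19% of all tested genes. Of the genes listed as near the ends of chromosome I, 25 of 47 were tested, 6 rose and 11 fell, with 5 and 9 of these by 2-fold or more. Several of these falls rest on few counts, and in some ssu72-C13S replicate 3 had no count. In a fit limited to genes with a mean count of 50 or more, 5 rose and 4 fell. Near the ends of chromosome II, 36 of 64 were tested, 10 rose and 13 fell, with 4 and 7 by 2-fold or more. The rise at gdt1, above, was flanked by others: its divergent neighbour SPAC186.06 had 6.07, 5.80 and 6.55 CPM in ssu72-C13S and no count in any WT library, which is at least 57.7-fold higher in ssu72-C13S if each WT library is set to 3 counts. On the other side of gdt1, SPAC186.04c, in tandem downstream, had 1.99, 2.32 and 2.52 CPM in ssu72-C13S and 0.152, 0 and 0.0388 CPM in WT, a fitted log2 fold change of 4.95 that was 6.61 without WT replicate 1. The helicase genes tlh1 and tlh2 at the ends rose (3.07 and 3.13), with the limit that they are near-identical copies. The factor gene grt1 averaged 1.25 CPM in ssu72-C13S and 8.14 CPM in WT (-2.69), and SPBCPT2R1.04c fell by 4.37 on the log2 scale at 0.154 CPM in ssu72-C13S and 3.26 CPM in WT. The 30 outermost coding genes of these ends also include genes described above: str3 at the left end of chromosome I, pfl9 at its right end, and pho84, pho1 and fub2 at the right end of chromosome II.

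**Figure D5:**
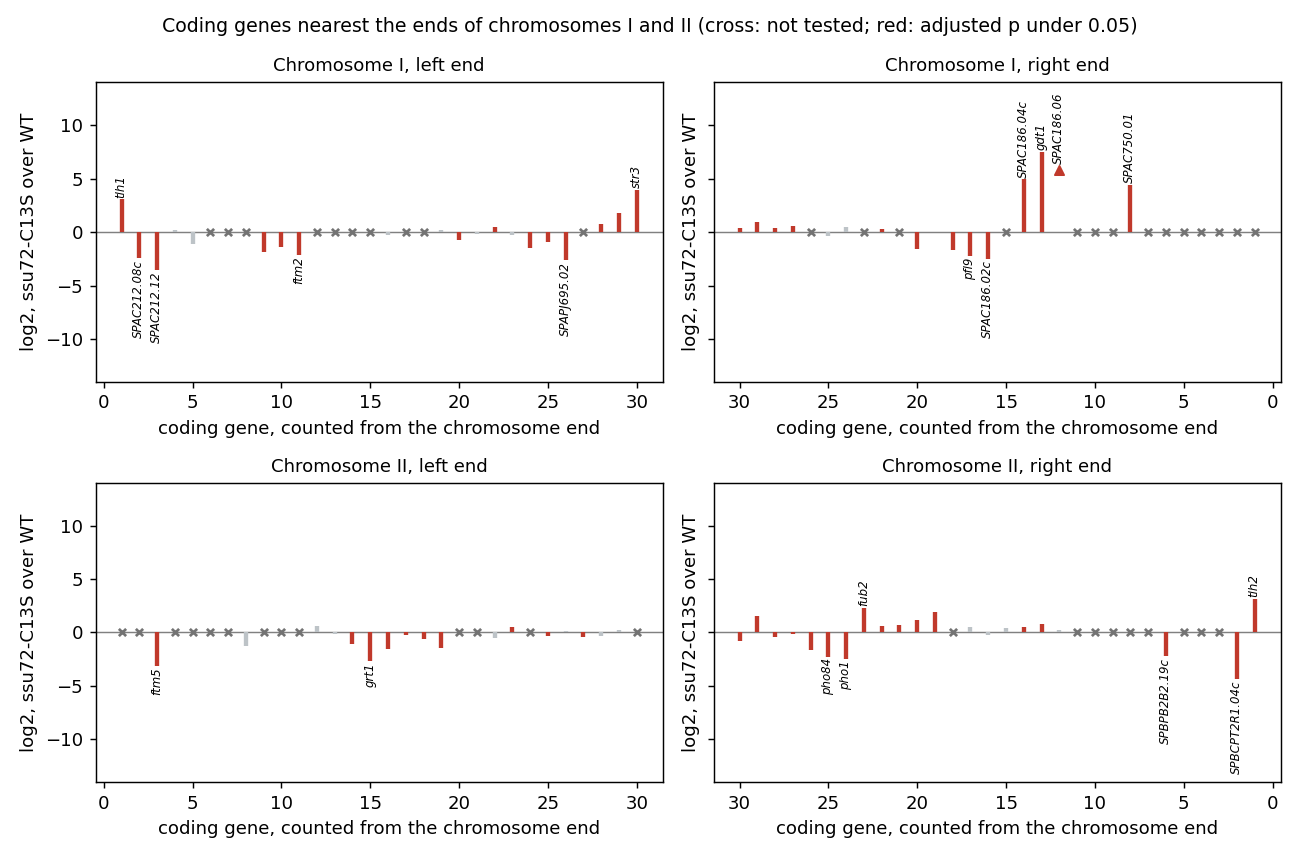
Log2 fold change, ssu72-C13S over WT, of the 30 protein-coding genes nearest each end of chromosomes I and II, in gene order. Red lines passed an adjusted p of 0.05, grey lines did not, crosses were not tested, and the triangle is SPAC186.06 at its lower bound, since it had no count in WT. At the right end of chromosome I, gdt1 (7.52) and pfl9 (-2.23) lie a few genes apart.

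Heterochromatin and RNA interference genes changed little, with 2 of 21 higher and 2 lower, and the counts ranged from 2 to 8 higher and from 1 to 6 lower over the settings. The 2 that rose were the H3K9 methylation partner gene rik1 (0.59) and the methyltransferase gene clr4 (0.36), beside the 2 other members that fell. The wtf spore killer genes, a multicopy family whose reads are uncertain, rose in 15 of 24 cases with 1 lower and a median of 0.63. Of 4 tested Tf2 retrotransposons 1 passed, as higher.

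Annotated non-coding RNAs (identifiers SPNCRNA) moved both ways in about equal number. Of 1118 tested, of 1524 in the table, 313 rose (127 by 2-fold or more) and 324 fell (120), with a median of -0.02, beside protein-coding genes at 1239 higher and 1464 lower of 4987, of which 149 and 149 by 2-fold or more. SPNCRNA.978 had 8.82, 7.90 and 10.6 CPM in ssu72-C13S and 1.22, 0.880 and 1.16 CPM in WT (3.06). The RNA omt3 had 0.549, 0.544 and 0.612 CPM in ssu72-C13S and 22.3, 20.0 and 17.7 CPM in WT (-5.13, SE 0.19, adjusted p 4.02e-10). The upstream RNA prt2, which represses pho84 when transcribed, had 34.1, 34.8 and 33.1 CPM in ssu72-C13S and 33.7, 32.5 and 32.1 CPM in WT. Its log2 fold change of 0.05 did not pass, while pho84 itself fell. Levels of poly(A)+ RNA do not measure how much prt2 was transcribed, and pho84 shares bases with a gene on the same strand. SPNCRNA.1492, which shares its strand with the siderophore gene sib3, averaged 26.9 CPM in ssu72-C13S and 4.23 CPM in WT (2.67). Small nucleolar RNAs, which poly(A) selection captures only as extended or adenylated forms or within other transcripts, rose in 13 of 33 cases and fell in 8. Among these snoR39b averaged 8.88 CPM in ssu72-C13S and 1.88 CPM in WT (2.24), and the U3 RNA gene snu3, listed among small nuclear RNAs, averaged 1.92 CPM in ssu72-C13S and 0.231 CPM in WT (3.03).

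The shares that changed were also taken by how a gene is placed beside its neighbours, with no test. Of 2283 protein-coding genes whose upstream neighbour lies on the same strand, 24.8% rose and 27.8% fell, and of 2704 with an upstream neighbour on the opposite strand 24.9% rose and 30.7% fell. For a downstream neighbour on the same strand the shares were 25.7% and 28.5% of 2247 genes, and for one on the opposite strand 24.1% and 30.1% of 2736. Of 1885 genes that overlap a coding gene on the opposite strand 1.43% rose and 2.71% fell by 2-fold or more, and of 3102 without such an overlap 3.93% and 3.16%. Gene length went weakly with the fold change across 4987 coding genes, which are not independent replicates (Spearman's rho 0.136). Among 5 groups of equal size, the shortest genes had a median of -0.146 and the longest 0.0191. Respiratory genes on the list had a median length of 1177 bases and all coding genes 1797; the part of length in their lower levels was not tested. Spearman's rho of the fold change with the mean level was 0.0335.

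The asp1-H397A strain, altered in the part of Asp1 that removes inositol pyrophosphates, gave a second contrast, chosen after the comparison with WT had been seen. It shares the ssu72-C13S libraries with that comparison, so the values stand side by side without a correlation. Against asp1-H397A, 3342 genes differed (54.0%), 1506 higher in ssu72-C13S (24.3%) and 1836 lower (29.7%). By 2-fold or more 755 differed (12.2%), with 7.8% higher and 4.39% lower. That excess of lower genes was not kept in a fit without asp1-H397A replicate 3 and triple mutant replicate 1. Both libraries had been singled out in an earlier analysis of these data, whose values are not given here. Their scaling factors between libraries, 1.004 and 0.948, were the highest of their genotypes. In the fit without them 2286 were higher and 2208 lower. The respiratory group was again lower in ssu72-C13S, 36 of 45 with 1 higher and a median of -1.07. The large ribosomal subunit list (50 of 85) and nucleolar assembly genes (30 of 44) were lower too. Iron uptake was higher in 11 of 15 members with 2 lower (median 0.53), and the Pap1 list in 7 of 11 with 2 lower, 5 of them higher by 2-fold or more.

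Phosphate acquisition was lower in ssu72-C13S against both strains. Against asp1-H397A it lay at a median of -4.38, with 5 of 7 genes lower by 2-fold or more in ssu72-C13S and 2 higher. The median against WT was -0.64, so the value against asp1-H397A also holds a difference of that strain from WT. Some groups took another side against this strain. Uracil genes, higher in part against WT, were lower in 6 of 9 cases against asp1-H397A and higher in 0, and glycolysis was lower in 8 of 18 with 1 higher. Non-coding RNAs were higher in ssu72-C13S in 553 of 1118 cases and lower in 124, with a median of 0.47. Without the same 2 libraries the respiratory group held 36 lower and 2 higher, iron uptake 11 higher and 3 lower, the Pap1 list 7 higher and 4 lower, and glycolysis 11 lower and 2 higher.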

How the data were processed

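The authors deposited raw counts of reads per gene, 1 column per library, with no normalisation; the labels' protocols name poly(A)+ RNA, a stranded kit and paired-end sequencing. The submitters' processing notes name HISAT2 2.1.0, SAMtools, HTSeq 0.10.0, DESeq2 and genome build ASM294v2, without their settings. Of 6987 rows, 1 repeated an identifier and was dropped, and 0 columns were left unused. The reference annotation used here is of another build (ASM294v3), so it gave only names, products and gene order; 140 identifiers were not matched. No sequence is printed.

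Counts were analysed in R 4.3.3 with edgeR 4.0.16 (filterByExpr with a minimum count of 10, TMM scaling with factors of 1.077 to 1.126 in the 6 libraries compared). The 12 libraries were fitted together, with 1 term for each genotype and the replicate number left out. Contrasts used the quasi-likelihood test with the legacy option, adjusted by Benjamini-Hochberg over 6189 genes at a threshold of 0.05. A fold of 2 was applied to the fitted value after the test, and an SE is the log2 fold change divided by the square root of F. The script was tested on simulated counts. Where a WT library has no count, the limit used is 3 counts (0.103 to 0.128 CPM), which covers counting error only. The alternatives tried were DESeq2 1.42.0, RLE and upper-quartile scaling, other filters, other sets of libraries in the fit, a replicate block, robust estimation and leaving out each library.

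The genes and gene lists were chosen with earlier results of these data known. The lists are described by counts and medians, without a test of the list. Genes were named by rule: ssu72, pho1, pho84 and tgp1; the genes and the SPNCRNA transcripts with the largest changes in each direction (mean of at least 5 CPM, libraries of the genotypes not overlapping); the members of each list with the largest changes; and annotated neighbours. Of 144 genes named, 39 fall outside the first parts of the rule and were chosen after their values were seen: the neighbours fip1, fub2, knh1, mug115 and SPAC56F8.15, and agl1, anc1, atp2, cft1, ctt1, cyc1, fep1, gpd1, hsp90, kgd1, mam2, map2, map3, obr1, pap1, pcl1, pdc101, php4, prt2, pyk1, rpb1, sdh1, shu1, sib1, sib2, sib3, sks2, spk1, ssc1, sxa2, tlh1, tpx1, trx2 and wwm3. Not every gene that the rule picked is named in the text. The 2 iron-sulfur lists and the contrast with asp1-H397A were also added after values were seen.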

Additional observations from a re-analysis of the deposited data

How the results depend on the processing

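The number of genes that differed between ssu72-C13S and WT was 2809 to 2953 when 1 of the 6 libraries was left out, and between 3182 (mean count of 50 or more) and 4507 (without asp1-H397A replicate 3 and triple mutant replicate 1) under the other settings, beside 3384 as reported. With only the 6 libraries in the fit it was 4404. The number past 2-fold was 562 to 584 with a library left out and 422 to 611 otherwise, beside 569. With the replicate number as a block the counts were 3283 and 564; libraries of the same number in both genotypes did not deviate together (correlations of -0.0013, -0.0118 and -0.00514), and no library correlated best with its own number, so the numbers were not taken to pair libraries. The share of calls that were higher was 46.7% as reported, 49.7% with RLE scaling and 50.4% with upper-quartile scaling.

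Of 135 named genes that passed the test, 0 changed direction under any of 16 settings, and 2, pho841 and pcl1, missed the threshold under some. Among named genes that did not pass, fep1, kgd1, ctt1, csk1 and fur4 passed with only the 6 libraries in the fit. Of 91 counts of higher or lower members of a gene group, 36 moved by over 1.5 times under at least 1 setting. Lower members ranged from 5 to 11 for the cleavage and polyadenylation factor and for RNA polymerase II, from 11 to 33 for splicing, from 0 to 12 for the proteasome and from 4 to 14 for the subtelomeric genes of chromosome I, whose median was -0.63 as reported and 0 with DESeq2. The cause of these shifts was not tested. Against asp1-H397A, a fit without the same 2 libraries, chosen after the values had been seen, called 4494 genes in place of 3342. Depth limits calls at genes near the chromosome ends, of which many had too few counts to be tested.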
